A study of Homo sapiens with 24 samples.

Results

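The genes described here are the nuclear-encoded genes of the respiratory chain and of ATP synthase in A549, a cell line from a human lung tumour. They were taken by name. Every protein-coding gene of the expression table whose symbol begins with NDUF, SDH, UQCR, COX or ATP5 was included, which gave 112 of 19817 protein-coding genes and of 58302 genes in all. By textbook roles, 46 belong to complex I, 8 to complex II, 9 to complex III, 28 to complex IV and 21 to complex V, and 86 are subunits and 22 assembly factors. The other 4 are ATP5IF1, the inhibitor of ATP synthase, ATP5S, and the readthrough genes NDUFC2-KCTD14 and ATP5MF-PTCD1. NDUFA4 and NDUFA4L2 were counted with complex IV in spite of their names, and COX7A2L as a factor of supercomplex assembly. Levels are in FPKM, fragments per kilobase of transcript scaled to the library total. Averaged over 12 libraries, 101 members reached 1 FPKM and were tested, and the 11 below it were ATP5MF-PTCD1, ATP5MGL, ATP5S, COX4I2, COX6A2, COX6B2, COX7A1, COX7B2, COX8C, NDUFA4L2 and NDUFAF6.

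Polyadenylated RNA was sequenced from 4 groups of 3 libraries. They were cells carrying a GPD1 lentivirus with 10 mM metformin, the same cells without metformin, cells carrying a blank vector lentivirus with 10 mM metformin, and vector cells without metformin. GPD1 is the cytosolic enzyme that uses NADH to make glycerol-3-phosphate, and metformin is a diabetes drug that inhibits complex I. All 4 groups had been exposed to a lentivirus, and the labels give neither the length of the treatment nor whether the transduced cells were 1 clone or a pool. They do not say whether replicates were separate cultures, so that p-values measure only the spread between these libraries. The other 12 of the 24 samples, from the kidney cancer line 786-O, were not analysed here.

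Complexes I and II pass electrons from NADH and succinate to ubiquinone, complex III passes them on to cytochrome c, and complex IV passes them to oxygen. Complexes I, III and IV pump protons, and ATP synthase, complex V, uses the proton gradient to make ATP. Apart from complex II, each of these enzymes joins nuclear subunits to subunits encoded in the mitochondrial genome. Assembly factors insert cofactors or join modules and are not part of the finished enzyme. In human cells the transcription factors NRF1, GABPA of the ETS family and YY1 bind the promoters of many of these genes.

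GPD1 was at 13.3 to 13.8 FPKM in GPD1 cells with metformin and 15.1 to 16.8 FPKM in GPD1 cells without it, against 0.0248 to 0.0702 FPKM in vector cells with metformin and 0.0408 to 0.103 FPKM in vector cells without it, which fits the labels. The epithelial keratins KRT8 and KRT18 were at 64.4 FPKM or more in every library, while KRT19 and the lung lineage genes NKX2-1, SFTPB and SFTPC were at or under 0.0869 FPKM. The blood cell marker PTPRC was at or under 0.0299 FPKM. Of the kidney-type markers, PAX2 was at 0.457 to 2.48 FPKM, CA9 at 1.59 to 3.52 FPKM and PAX8 at 0.162 FPKM or less, and the epithelial gene EPCAM was at 0.240 to 1.57 FPKM. The part of these levels in the results was not tested. Depth, taken from the step between low values, was 13.3 to 18.0 M reads or fragments, so that 1 read on 1 kb was worth 0.0556 to 0.0752 FPKM. Transcripts of the mitochondrial genome held 10.3% to 11.4% of all FPKM in GPD1 cells with metformin and 30.2% to 32.3% without it, and 13.7% to 14.9% in vector cells with metformin and 32.9% to 33.2% without it. Because FPKM are shares of a total, this difference touches every metformin comparison. When totals were taken without the mitochondrial genome, the median log2 fold change of all 12607 tested genes was -0.49 instead of -0.20 for metformin in GPD1 cells and -0.34 instead of -0.10 in vector cells.

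Promoters are shown first, since binding sites for shared factors are one property of these genes that does not come from the expression values. RefSeq promoters (GRCh38.p14) were found for 91 of the 112 members and were searched on both strands from 250 bases before the start of transcription to 30 bases after it. The NRF1 motif, GCGC and TGCGC with 1 free base between them, was present in 22 of the 91 (24.2%), against 6.2% of 27305 promoters of all genes and 12.8% of the 8576 promoters of genes tested here. The ETS motif CCGGAAG was present in 26 members (28.6%), against 10.3% of all promoters and 20.1% of those of tested genes. The YY1 motif ATGGCGGC was present in 9 members (9.89%), against 2.35% and 4.82%. NRF1 matches stood in 4 of 7 complex III and 4 of 7 complex II promoters and in 7 of 40 complex I promoters. YY1 matches stood in 7 of 40 complex I and 2 of 7 complex II promoters, and in none of the other complexes. A match describes these letters and is not a measured binding site. The following stretches run 5′ to 3′ along the gene from 120 bases before the start to 30 bases after it, with the matches in capitals, and were chosen, after values were seen, as promoters with matches from genes that rose, fell or moved in opposite directions.
UQCR11 (complex III subunit, chr19:1605433-1605582, minus strand): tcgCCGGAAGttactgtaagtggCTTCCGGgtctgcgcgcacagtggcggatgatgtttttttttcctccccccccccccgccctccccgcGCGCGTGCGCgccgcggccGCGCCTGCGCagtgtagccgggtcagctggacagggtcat
COX5B (complex IV subunit, chr2:97645942-97646091, plus strand): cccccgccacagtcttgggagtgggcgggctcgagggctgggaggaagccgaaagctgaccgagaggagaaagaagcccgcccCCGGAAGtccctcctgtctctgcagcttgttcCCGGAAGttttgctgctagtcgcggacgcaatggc
COX17 (complex IV copper chaperone, chr3:119677377-119677526, minus strand): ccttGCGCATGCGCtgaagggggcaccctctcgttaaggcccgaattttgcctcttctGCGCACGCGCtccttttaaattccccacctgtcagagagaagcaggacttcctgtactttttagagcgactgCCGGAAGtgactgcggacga
NDUFA8 (complex I subunit, chr9:122159750-122159899, minus strand): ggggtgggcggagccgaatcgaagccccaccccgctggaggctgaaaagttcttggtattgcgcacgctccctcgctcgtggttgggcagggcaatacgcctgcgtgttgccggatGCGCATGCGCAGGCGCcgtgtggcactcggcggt
SDHA (complex II subunit, chr5:218200-218349, plus strand): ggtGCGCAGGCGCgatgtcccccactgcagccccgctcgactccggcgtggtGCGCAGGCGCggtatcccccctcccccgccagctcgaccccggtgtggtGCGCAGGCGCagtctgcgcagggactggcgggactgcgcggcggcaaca
SDHAF4 (complex II assembly factor, chr6:70566810-70566959, plus strand): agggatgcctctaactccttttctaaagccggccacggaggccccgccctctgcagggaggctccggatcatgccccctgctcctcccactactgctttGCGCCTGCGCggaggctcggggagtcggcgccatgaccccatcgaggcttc

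Among members with a promoter, the NRF1 motif was present in 9 of 49 that rose with metformin in GPD1 cells, 3 of 15 that fell and 9 of 22 that were not called. In vector cells it was present in 5 of 34 that rose, 7 of 21 that fell and 9 of 31 that were not called. The ETS motif was present in 17 of 49 that rose, 4 of 15 that fell and 5 of 22 that were not called in GPD1 cells, and in 12 of 34, 6 of 21 and 8 of 31 in vector cells. On the deposited scale SDHA, with 4 NRF1 matches in the window searched, of which 3 lie in the printed stretch, and NDUFA8, with 2 that overlap, were lower with metformin, whereas UQCR11, with 2 NRF1 and 2 ETS matches, was higher in GPD1 cells. Of these calls only that of NDUFA8 in GPD1 cells was kept in each of the 6 settings of scaling and length described below.

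Summed over the 112 members, the deposited levels were higher with metformin. They came to 1.09% ± 0.011 of all FPKM in GPD1 cells with metformin and 0.874% ± 0.0273 without it, and to 0.953% ± 0.0193 in vector cells with metformin and 0.818% ± 0.0189 without it (SD, n = 3 each). The libraries of these groups did not overlap. Taken as a share of the FPKM outside the mitochondrial genome, the order turned. The members then held 1.22% ± 0.014 in GPD1 cells with metformin and 1.27% ± 0.0201 without it, and 1.11% ± 0.017 in vector cells with metformin and 1.22% ± 0.0312 without it. On that scale, as on the other, GPD1 cells with metformin stood above vector cells with metformin. With 3 libraries a group, an exact permutation test of 1 value cannot go below p = 0.10, so these sums were given no p.

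**Figure D1:**
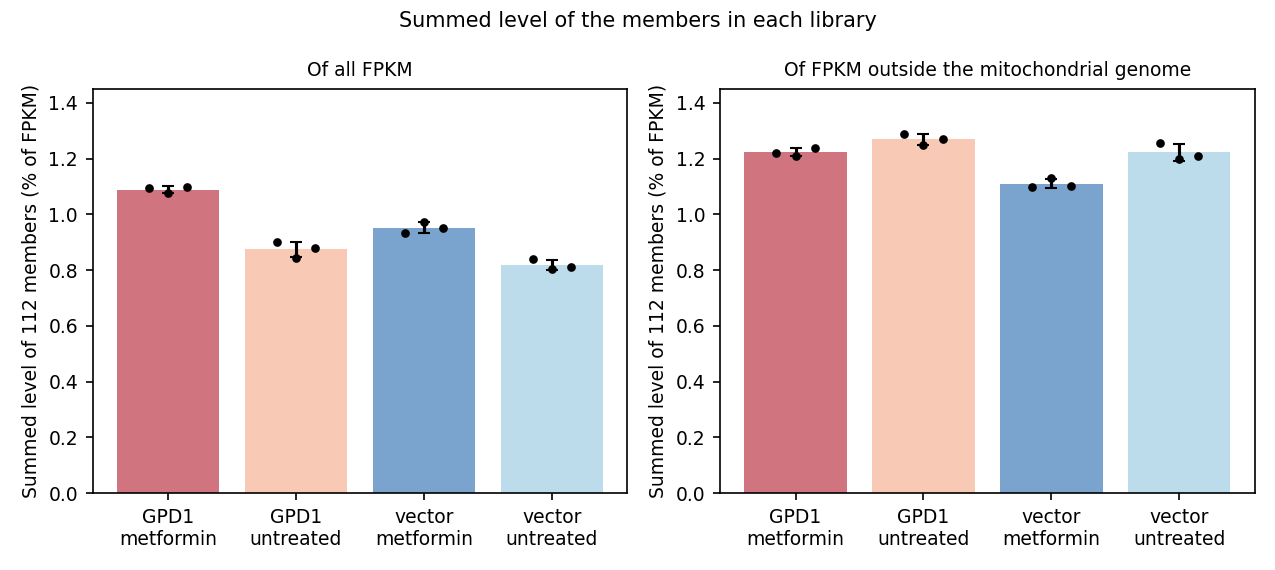
Summed level of the 112 members in each library as a percentage of all FPKM (left) and of the FPKM outside the mitochondrial genome (right). Bars are means with SD (n = 3) and points are libraries; metformin groups stand above their untreated groups on the left (1.09% and 0.874% in GPD1 cells) and below them on the right (1.22% and 1.27%).

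Metformin split the nuclear respiratory genes rather than moving them as one block. Fold changes are differences of mean log2(FPKM + 1), given with the standard error of the limma fit, and p-values are Benjamini-Hochberg adjusted over all 12607 genes. In GPD1 cells 53 of 101 members rose and 19 fell, while 26.1% of all tested genes rose and 48.0% fell. In vector cells 37 rose and 27 fell, while 31.3% of all tested genes rose and 43.3% fell. Calls were thus common, with 74.2% of all genes called in one direction or the other in GPD1 cells and 74.6% in vector cells. The libraries with and without metformin did not overlap for 74 members in GPD1 cells (77.1% of all genes) and for 65 in vector cells (76.6% of all genes). The median member was 0.24 against -0.20 over all genes in GPD1 cells, and 0.06 against -0.10 in vector cells. With totals taken without the mitochondrial genome the counts turned to 21 higher and 43 lower in GPD1 cells, while 13.5% of all tested genes rose and 64.6% fell. In vector cells they turned to 14 higher and 51 lower, while 21.3% of all tested genes rose and 55.4% fell. On this scale the members' median stood 0.35 above that of all genes in GPD1 cells and 0.14 above it in vector cells. Short transcripts also moved more upward than long ones in these comparisons. Spearman's rho of log2 fold change against merged exon length was -0.238 over all genes in GPD1 cells and -0.165 in vector cells, and tested members were shorter, with a median of 2462 bases, than all tested genes, with 4202 bases. With a length trend removed from each library the counts were 44 and 18 in GPD1 cells and 33 and 26 in vector cells. Of all tested genes, 26.3% then rose and 45.9% fell in GPD1 cells, and 32.5% rose and 42.1% fell in vector cells. With both corrections together, a setting added after the data were seen, they were 12 and 55 in GPD1 cells and 12 and 50 in vector cells. Of the 12586 genes tested in this setting, 1634 rose and 8100 (64.4%) fell in GPD1 cells. In vector cells 2703 (21.5%) rose and 6877 (54.6%) fell. The members' median still stood 0.20 above that of all genes in GPD1 cells and 0.099 above it in vector cells. The part of length and of the scaling in any single gene's change was not tested.

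The direction of single members was shared between the 2 cell populations in most calls. The log2 fold changes of metformin in GPD1 cells and in vector cells, which have no library in common, had Pearson's r = 0.747 over the 101 members and 0.765 over all tested genes, and genes are not independent replicates. Both comparisons called 32 members higher (19.7% of all genes were) and 14 members lower (35.1% of all genes were). The 3 members called in opposite directions were ATP5MG, COX20 and SDHAF4, higher in GPD1 cells and lower in vector cells (6.34% of all genes were called in opposite directions). These opposite calls depended on scaling, since over the 6 settings given next the change in GPD1 cells ranged from -0.14 to 0.46 for ATP5MG, 0.18 to 0.72 for COX20 and -0.34 to 0.48 for SDHAF4, and that in vector cells from -0.55 to -0.13, -0.59 to -0.23 and -0.81 to -0.28, with the vector-cell call kept throughout for SDHAF4 alone. Some calls did not depend on how libraries were scaled. Under the deposited totals, 3 other scalings, the length correction and both corrections together, ATP5F1E, ATP5MC2, COX10, COX7A2, NDUFAF2, NDUFS8, NDUFV2 and UQCRB were called higher in both populations, and COX19, NDUFAF1, NDUFC2 and NDUFS1 lower in both.

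**Figure D2:**
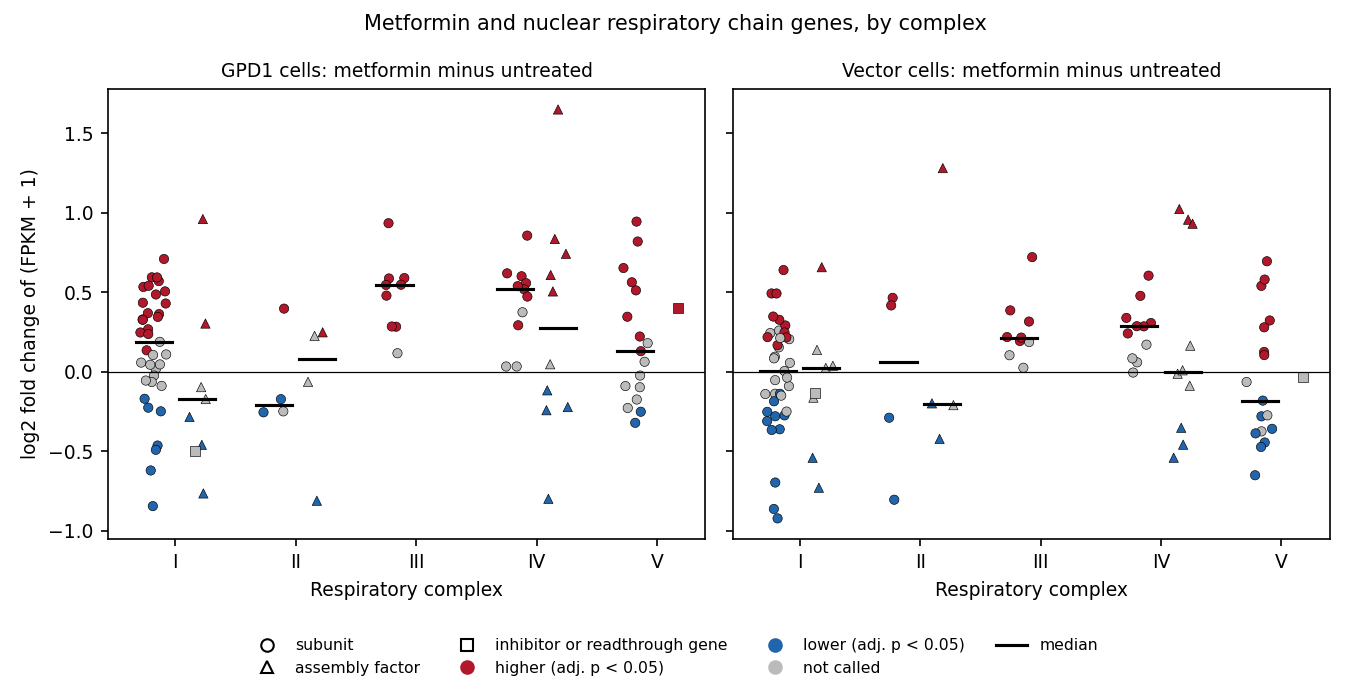
Log2 fold change with metformin of the 101 tested members, by complex, in GPD1 cells (left) and vector cells (right), on the log2(FPKM + 1) scale of the deposited totals. Red and blue mark adjusted p under 0.05, circles are subunits, triangles assembly factors, squares the inhibitor ATP5IF1 (complex V) or the readthrough gene (complex I), and black lines are medians; complex III and the subunits of complex IV have no member called lower on this scale, but do (1 or 2 each) when totals exclude the mitochondrial genome.

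Complex III had the most uniform rise on the deposited scale. It holds the Rieske protein UQCRFS1 and the core proteins UQCRC1 and UQCRC2 beside small subunits. With metformin in GPD1 cells 26.1% of all tested genes rose and 48.0% fell, while 8 of its 9 nuclear genes rose, with none lower. In vector cells 31.3% of all tested genes rose and 43.3% fell, while 6 of its 9 nuclear genes rose, with none lower. With totals without the mitochondrial genome 5 were higher and 1 lower in GPD1 cells and 1 higher and 2 lower in vector cells, and with both corrections together 1 was higher and 2 lower in each population. UQCRB, a small subunit at the ubiquinone site, had 15.2, 15.1 and 14.3 FPKM in GPD1 cells with metformin and 7.37, 7.22 and 7.28 FPKM without it. In vector cells it had 11.1, 10.1 and 12.02 FPKM with metformin and 6.03, 6.90 and 6.02 FPKM without it. The libraries did not overlap in either population. The log2 fold changes were 0.93 ± 0.065 (adjusted p = 2.5e-07) and 0.72 ± 0.065 (adjusted p = 1.7e-06). UQCR10, another small subunit, had 35.3, 32.6 and 35.6 FPKM in GPD1 cells with metformin and 23.0, 21.2 and 23.8 FPKM without it. Its vector libraries overlapped, with 23.0, 26.9 and 22.0 FPKM with metformin and 24.7, 22.8 and 22.8 FPKM without it. UQCR10 thus rose in GPD1 cells on the deposited scale (0.59 ± 0.074, adjusted p = 2.9e-05), a call lost with both corrections together (-0.11), and was not called in vector cells (0.03 ± 0.074, adjusted p = 0.77). UQCRH, the hinge protein, and its near-identical intronless copy UQCRHL had the same sign in all 4 pairwise comparisons, and reads cannot be safely assigned between them. Under totals without the mitochondrial genome both were slightly negative in vector cells (-0.07 each). UQCRFS1 has 3 named pseudogene copies whose levels sum to 42.8 FPKM, against its own 72.4 FPKM.

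With metformin in GPD1 cells 26.1% of all tested genes rose and 48.0% fell, and in vector cells 31.3% rose and 43.3% fell. Of the 11 tested subunits of complex IV, 8 rose with metformin in GPD1 cells and 7 in vector cells on the deposited scale, with none lower. In either population 2 were higher and 2 lower with totals without the mitochondrial genome, and 1 was higher and 3 lower with both corrections together. The 18 subunit genes summed to 1177 ± 10.7 FPKM in GPD1 cells with metformin and 840 ± 17.7 FPKM without it, and to 966 ± 60.7 FPKM in vector cells with metformin and 791 ± 33.2 FPKM without it (SD, n = 3 each). COX8A alone, at a mean of 434 FPKM the most abundant member, supplied much of that sum. It had 561, 522 and 496 FPKM in GPD1 cells with metformin and 377, 377 and 382 FPKM without it, and in vector cells 422, 484 and 463 FPKM with metformin and 380, 374 and 365 FPKM without it. Its rise (0.47 ± 0.056 and 0.29 ± 0.056) was one of those that turned negative with both corrections together, to -0.30 in GPD1 cells and -0.34 in vector cells. COX7A2, the widely expressed form of subunit VIIa, was called higher under each of the 6 settings in both populations. It had 28.3, 30.3 and 27.0 FPKM in GPD1 cells with metformin and 13.6, 16.0 and 16.5 FPKM without it, and 22.1, 25.95 and 26.1 FPKM in vector cells with metformin and 16.1, 18.1 and 13.7 FPKM without it. It rose by 0.86 ± 0.105 in GPD1 cells (adjusted p = 2.4e-05) and by 0.60 ± 0.105 in vector cells (adjusted p = 0.00032).

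The assembly factors of complex IV moved in both directions. Of 10, 5 rose and 4 fell with metformin in GPD1 cells, while 26.1% of all tested genes rose and 48.0% fell. In vector cells 3 rose and 3 fell, while 31.3% of all tested genes rose and 43.3% fell. COX14, which stabilises newly made COX1, had 28.4, 29.6 and 30.9 FPKM in GPD1 cells with metformin and 14.7, 14.9 and 19.2 FPKM without it. In vector cells it had 30.4, 32.1 and 31.1 FPKM with metformin and 15.2, 15.3 and 14.0 FPKM without it, with no overlap in either population. The log2 fold changes were 0.84 ± 0.085 (adjusted p = 5.6e-06) and 1.02 ± 0.085 (adjusted p = 9.7e-07). The call in GPD1 cells was lost with both corrections together (0.16). COX10, which makes heme O for the COX1 subunit, rose by 0.74 ± 0.118 in GPD1 cells and 0.96 ± 0.118 in vector cells. COX17 and COX19 are both linked to copper delivery, and they went opposite ways in GPD1 cells on the deposited scale. COX17 had 14.1, 14.7 and 12.7 FPKM with metformin and 8.64, 7.79 and 9.80 FPKM without it, whereas COX19 had 1.02, 1.02 and 1.04 FPKM with metformin and 2.51, 2.48 and 2.58 FPKM without it. The call of COX17 in GPD1 cells was lost with both corrections together (0.14). In vector cells COX17 was not called (0.16 ± 0.079, adjusted p = 0.081) and COX19 fell by 0.54 on the log2 scale.

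COX7A2L, which joins complexes III and IV, had values that spread widely within groups. It had 34.2, 19.4 and 34.4 FPKM in GPD1 cells with metformin and 8.29, 8.10 and 8.71 FPKM without it, and 33.7, 18.4 and 34.0 FPKM in vector cells with metformin and 18.5, 7.89 and 18.6 FPKM without it. In 3 of the 4 groups the library numbered 2 stood apart from the other two, and in the remaining group all 3 libraries were low. In GPD1 cells its libraries did not overlap, and it was higher with metformin by 1.65 ± 0.338 (adjusted p = 0.0011), a call kept in each of the 6 settings. In vector cells the groups overlapped. Its call in vector cells (0.93 ± 0.338, adjusted p = 0.028) was lost without metformin replicate 1 (adjusted p = 0.0904), metformin replicate 3 (adjusted p = 0.0923) or untreated replicate 2 (adjusted p = 0.109). Other members whose highest library was at least 1.5 times the lowest in 2 or more groups were ATP5F1A, COX4I1, NDUFA4, NDUFA6, NDUFC2-KCTD14 and SDHAF2, while the median member had a ratio of 1.12 to 1.14 in each group.

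**Figure D3:**
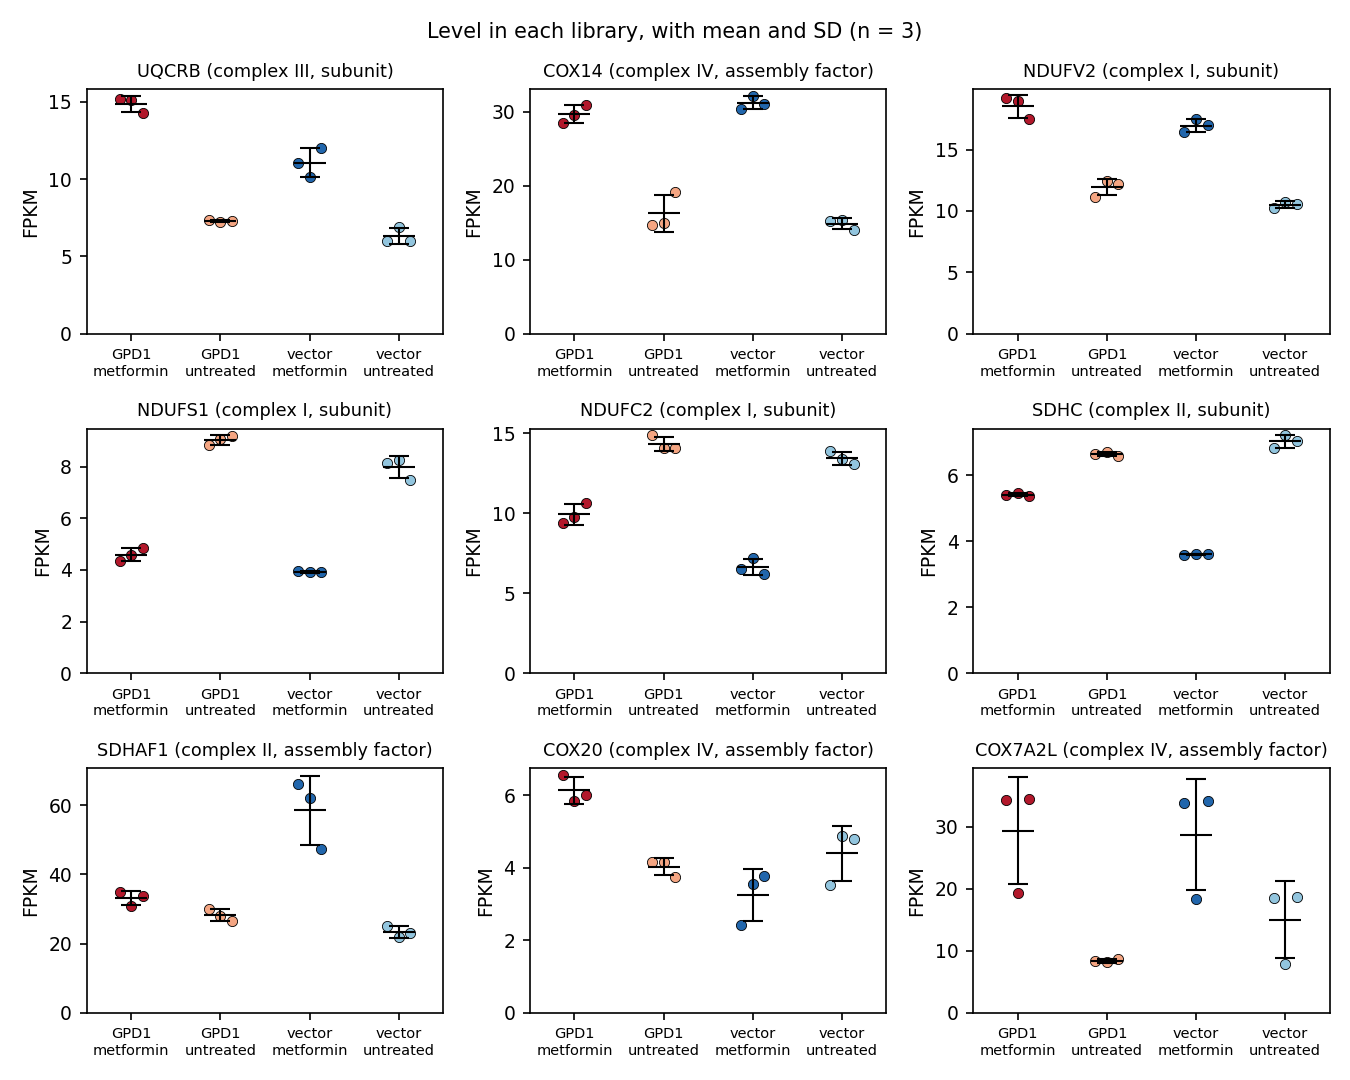
FPKM of 9 members in each library of the 4 groups, with mean and SD (n = 3), each panel on its own axis from 0. UQCRB, COX14 and NDUFV2 are higher with metformin in both populations, NDUFS1, NDUFC2 and SDHC lower in both, SDHAF1 is high in vector cells with metformin alone, COX20 is highest in GPD1 cells with metformin, and COX7A2L spreads widely within groups.

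Complex I, the enzyme that metformin inhibits, had members called in each direction, also within its catalytic core. Of 37 subunits 19 rose and 7 fell with metformin in GPD1 cells, while 26.1% of all tested genes rose and 48.0% fell. In vector cells 10 rose and 11 fell, while 31.3% of all tested genes rose and 43.3% fell. With totals without the mitochondrial genome the subunit counts were 4 and 16 in GPD1 cells and 3 and 20 in vector cells. The shares of all tested genes were then 13.5% and 64.6% in GPD1 cells and 21.3% and 55.4% in vector cells. The 7 nuclear core subunits split into 3 higher and 2 lower in GPD1 cells and 3 higher and 3 lower in vector cells. NDUFV2, an iron-sulfur subunit of the NADH-binding module, had 19.2, 19.0 and 17.5 FPKM in GPD1 cells with metformin and 11.2, 12.4 and 12.2 FPKM without it. NDUFS1, which carries further iron-sulfur clusters in the same module, had 4.34, 4.59 and 4.83 FPKM in GPD1 cells with metformin and 8.82, 9.07 and 9.19 FPKM without it. These 2 partners therefore moved in opposite directions. In vector cells NDUFV2 had 16.4, 17.5 and 17.0 FPKM with metformin and 10.2, 10.7 and 10.6 FPKM without it, and NDUFS1 had 3.97, 3.91 and 3.92 FPKM with metformin and 8.16, 8.27 and 7.49 FPKM without it. The log2 fold changes in GPD1 and vector cells were 0.59 ± 0.052 and 0.64 ± 0.052 for NDUFV2, and -0.84 ± 0.048 and -0.86 ± 0.048 for NDUFS1 (largest adjusted p = 1.5e-06). NDUFS8, which carries clusters near the quinone site, rose by 0.51 ± 0.061 and 0.49 ± 0.061. NDUFV2 has a pseudogene copy at 13.6 FPKM, and NDUFS1 overlaps EEF1B2 on the opposite strand. How reads were divided between such genes is not given in the sources used here.

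Among accessory subunits of complex I, 16 of 30 rose and 5 fell with metformin in GPD1 cells, and 7 rose and 8 fell in vector cells. The shares of all tested genes were 26.1% and 48.0% in GPD1 cells and 31.3% and 43.3% in vector cells. NDUFC2 had 9.40, 9.77 and 10.6 FPKM in GPD1 cells with metformin and 14.9, 14.1 and 14.1 FPKM without it, and 6.51, 7.22 and 6.20 FPKM in vector cells with metformin and 13.9, 13.4 and 13.1 FPKM without it. It shares exons with the readthrough gene NDUFC2-KCTD14. NDUFC2 fell by 0.49 on the log2 scale in GPD1 cells and by 0.92 in vector cells, and both calls were kept under each of the 6 settings. NDUFA8, a subunit with twin cysteine motifs, had 29.6, 31.9 and 26.7 FPKM in GPD1 cells with metformin and 43.2, 46.9 and 46.9 FPKM without it, a fall of larger size (-0.62 ± 0.066) than in vector cells (-0.28 ± 0.066; interaction adjusted p = 0.012). The call in vector cells was lost with median-ratio factors (-0.13), and that of the interaction with upper-quartile factors (-0.21). Of the assembly factors of complex I, NDUFAF2, which binds a late intermediate, had 21.4, 22.1 and 20.7 FPKM in GPD1 cells with metformin and 10.2, 10.4 and 10.97 FPKM without it. It had 15.4, 16.0 and 17.8 FPKM in vector cells with metformin and 10.3, 10.0 and 9.71 FPKM without it. NDUFAF2 rose by 0.96 ± 0.055 and 0.66 ± 0.055, whereas NDUFAF3, which acts on an early intermediate, fell by 0.28 on the log2 scale in GPD1 cells, a call lost with median-ratio factors (-0.06) or upper-quartile factors, and by 0.73 in vector cells. NDUFAF1 fell in both as well (-0.76 ± 0.121 and -0.54 ± 0.121).

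Complex II, which has no subunit from the mitochondrial genome, had members in each direction. SDHB, the iron-sulfur subunit, had 25.7, 26.6 and 26.7 FPKM in GPD1 cells with metformin and 21.4, 19.1 and 18.8 FPKM without it, and 25.9, 26.4 and 25.1 FPKM in vector cells with metformin and 19.5, 17.2 and 18.5 FPKM without it. SDHC, a membrane anchor, had 5.39, 5.46 and 5.37 FPKM in GPD1 cells with metformin and 6.64, 6.71 and 6.57 FPKM without it, and 3.58, 3.61 and 3.60 FPKM in vector cells with metformin and 6.81, 7.22 and 7.04 FPKM without it. On the deposited scale SDHB was higher and SDHC lower in both populations, with no overlap. The log2 fold changes in GPD1 and vector cells were 0.40 ± 0.057 and 0.47 ± 0.057 for SDHB, and -0.25 ± 0.036 and -0.80 ± 0.036 for SDHC. With both corrections together SDHB was -0.04 in GPD1 cells. The call of SDHC in GPD1 cells was lost with median-ratio factors (-0.04) and with the length trend removed, while that in vector cells was kept in each of the 6 settings. The call of SDHA, the flavoprotein, in GPD1 cells (-0.17 ± 0.071, adjusted p = 0.047) rested on the full set of libraries and was lost in 10 of the 12 fits that left a library out, with adjusted p up to 0.189. It also turned to 0.06 with median-ratio factors. SDHD, the other anchor, rose in vector cells (0.42 ± 0.126, adjusted p = 0.011), where its libraries with metformin ranged from 6.86 to 10.6 FPKM, a call lost under totals without the mitochondrial genome (0.16), and it was not called in GPD1 cells (-0.25 ± 0.126, adjusted p = 0.098). SDHD overlaps TIMM8B on the opposite strand, and its pseudogene copies sum to 26.5 FPKM.

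The assembly factors of complex II gave the widest difference between the populations. SDHAF1, which helps load iron-sulfur clusters into SDHB, had 34.8, 30.8 and 33.8 FPKM in GPD1 cells with metformin and 30.1, 28.0 and 26.5 FPKM without it. In vector cells it had 66.0, 62.1 and 47.2 FPKM with metformin and 25.1, 21.8 and 22.9 FPKM without it. The rise in vector cells was 1.28 ± 0.111 (adjusted p = 1.3e-06), and the change in GPD1 cells was 0.23 ± 0.111 (adjusted p = 0.087). SDHAF4, which protects free SDHA, had 11.5, 10.7 and 11.04 FPKM in GPD1 cells with metformin and 8.21, 9.46 and 9.92 FPKM without it, but 6.38, 6.99 and 7.55 FPKM in vector cells with metformin and 9.66, 9.63 and 9.68 FPKM without it. Its change was 0.25 ± 0.069 in GPD1 cells and -0.42 ± 0.069 in vector cells, and the first turned to -0.11 under totals without the mitochondrial genome.

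ATP synthase subunits had 7 of 17 higher and 7 lower with metformin in vector cells, while 31.3% of all tested genes rose and 43.3% fell. In GPD1 cells 8 were higher and 2 lower, while 26.1% of all tested genes rose and 48.0% fell. With totals without the mitochondrial genome 5 subunits were higher and 9 lower in GPD1 cells and 3 higher and 12 lower in vector cells. The shares of all tested genes were then 13.5% and 64.6% in GPD1 cells and 21.3% and 55.4% in vector cells. ATP5F1E, the epsilon subunit of the central stalk, had 37.1, 33.9 and 32.4 FPKM in GPD1 cells with metformin and 17.1, 15.9 and 19.4 FPKM without it, and 24.99, 27.5 and 28.0 FPKM in vector cells with metformin and 15.6, 16.0 and 17.0 FPKM without it. It rose by 0.94 ± 0.076 and 0.69 ± 0.076 on the log2 scale. The 3 genes ATP5MC1, ATP5MC2 and ATP5MC3 encode the same mature subunit c of the rotor ring, and they did not move together. ATP5MC2 had 31.0, 32.1 and 29.6 FPKM in GPD1 cells with metformin and 23.2, 17.1 and 18.1 FPKM without it, whereas ATP5MC1 had 15.9, 14.3 and 16.5 FPKM with metformin and 17.8, 19.5 and 18.8 FPKM without it. ATP5MC2 rose by 0.65 ± 0.091 in GPD1 cells and 0.54 ± 0.091 in vector cells. ATP5MC1 fell by 0.25 on the log2 scale in GPD1 cells, a call lost with median-ratio or upper-quartile factors, and by 0.44 in vector cells. ATP5MC3 was not called in GPD1 cells, and its call in vector cells (0.13 ± 0.051, adjusted p = 0.046) was lost in 9 of the 12 fits that left a library out, with adjusted p up to 0.156, and turned to -0.16 under totals without the mitochondrial genome. ATP5IF1, the inhibitor of ATP hydrolysis by the enzyme, had 16.3, 16.9 and 15.7 FPKM in GPD1 cells with metformin and 11.2, 12.03 and 13.1 FPKM without it. Its vector libraries overlapped, and it was called in GPD1 cells (0.40 ± 0.088, adjusted p = 0.0016) and not in vector cells (-0.04 ± 0.088, adjusted p = 0.73), and the difference itself was 0.44 (interaction adjusted p = 0.015). With both corrections together the change in GPD1 cells was -0.06 and not called, and the interaction (0.25) was not called.

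GPD1 cells were compared with vector cells with metformin and without it. An effect of GPD1 cannot be told apart here from other differences between the 2 transduced populations. Under metformin, 53 of 101 members were higher in GPD1 cells than in vector cells and 8 were lower, while 25.0% of all tested genes were higher and 35.0% lower (60.0% either way). Without metformin 13 were higher and 2 lower, while 9.99% of all genes were higher and 11.3% lower (21.3% either way). The libraries of the 2 populations did not overlap for 68 members with metformin (64.8% of all genes) and for 34 without it (41.4% of all genes). Under metformin this direction was kept by every scaling run, from 39 higher and 12 lower under totals without the mitochondrial genome to 70 higher and 5 lower with upper-quartile factors, and by both corrections together, with 29 higher and 17 lower. In these settings 18.9%, 33.6% and 19.0% of all tested genes were higher and 39.1%, 28.2% and 40.0% lower. Of the 53 calls 27 were kept in each of the 6 settings. By complex, the members higher under metformin were 8 of 9 in complex III, 19 of 37 subunits of complex I, 6 of 11 of complex IV and 11 of 17 of complex V. Assembly factors were divided, with 7 of 21 higher and 6 lower.

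**Figure D4:**
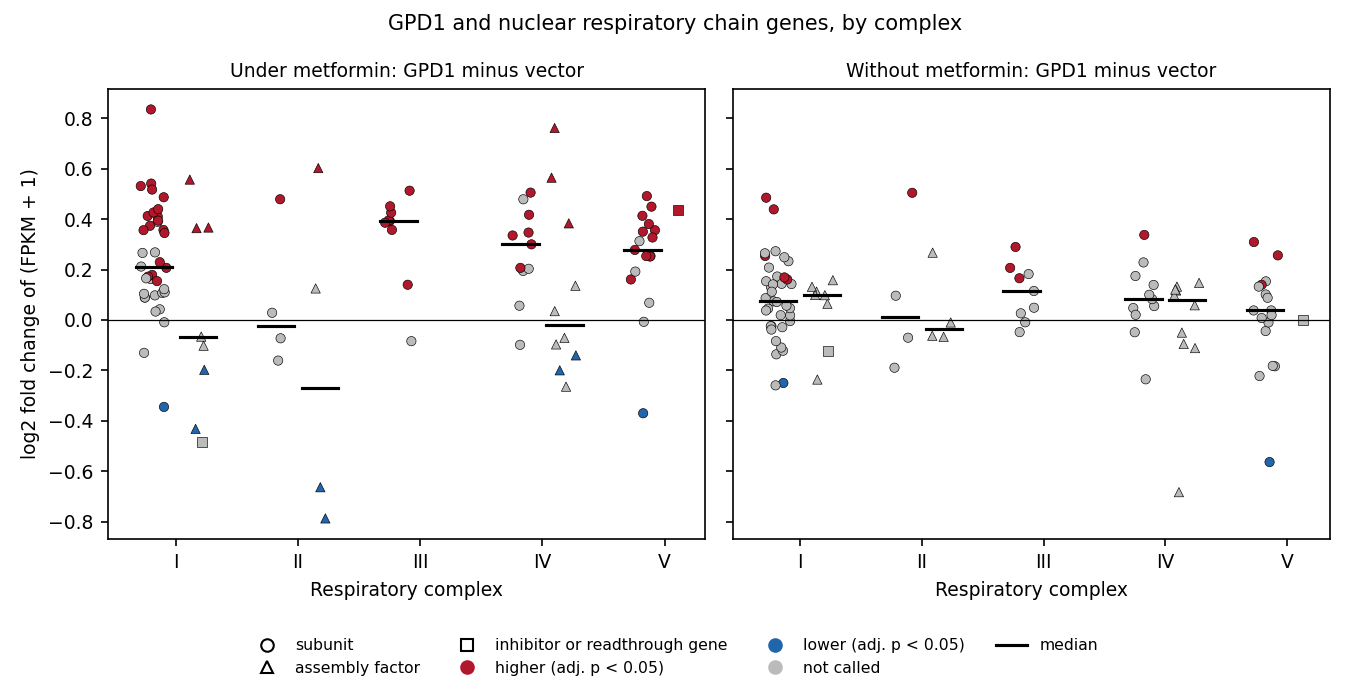
Log2 fold change of GPD1 cells over vector cells for the 101 tested members, by complex, with metformin (left) and without it (right), on the log2(FPKM + 1) scale. Colours, shapes and lines are as in the plot of metformin by complex; with metformin 53 members are higher and 8 lower, and without it 13 are higher and 2 lower.

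Some members differed with GPD1 in the same direction whether metformin was present or not. NDUFA2, an accessory subunit of complex I, had 36.4, 34.8 and 34.2 FPKM in GPD1 cells with metformin, against 21.0, 20.7 and 16.4 FPKM in vector cells with metformin. Without metformin it had 21.6, 22.8 and 24.5 FPKM in GPD1 cells and 15.3, 14.5 and 18.7 FPKM in vector cells. Neither pair overlapped, and the differences were 0.84 ± 0.105 (adjusted p = 5.1e-05) and 0.49 ± 0.105 (adjusted p = 0.0078). NDUFB11, an accessory subunit encoded on the X chromosome, was higher by 0.54 ± 0.056 with metformin and 0.44 ± 0.056 without it. COX5B was higher by 0.42 ± 0.070 and 0.34 ± 0.070, and UQCRQ by 0.45 ± 0.072 and 0.29 ± 0.072. ATP5F1C, the gamma subunit that turns inside the ATP synthase head, was lower in GPD1 cells on both backgrounds. It had 32.7, 33.4 and 34.8 FPKM in GPD1 cells with metformin, against 43.0, 44.0 and 44.3 FPKM in vector cells with metformin. Without metformin it had 31.0, 30.1 and 30.9 FPKM in GPD1 cells and 46.9, 44.9 and 45.6 FPKM in vector cells. The differences were -0.37 ± 0.035 (adjusted p = 6.3e-06) and -0.56 ± 0.035 (adjusted p = 1.6e-06), and both were kept in each of the 6 settings.

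The calls of GPD1 without metformin were few and rested in part on single libraries. The 13 higher calls came down to 8 without replicate 2 and 6 without replicate 3 of untreated GPD1 cells, and to 6 without replicate 3 of untreated vector cells. Of the 13 called members that the naming rule takes, leaving out 1 library or another ended the calls of ATP5MC1, ATP5PD, NDUFA11, SDHD, UQCRC1, UQCRH and UQCRQ, with adjusted p between 0.0508 and 0.165. The calls of NDUFB11 (adjusted p = 0.00027), ATP5F1C, NDUFA2, NDUFA10, COX5B and ATP5MC3 were kept in each of the 12 such fits.

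Other members differed with GPD1 under metformin and were not called without it. SDHC was higher by 0.48 ± 0.036 under metformin and was at -0.07 ± 0.036 without it, ATP5MG, a membrane subunit of ATP synthase, at 0.49 ± 0.051 and -0.01 ± 0.051, and COX20, a chaperone of the COX2 subunit, at 0.76 ± 0.129 and -0.10 ± 0.129. SDHAF1 was lower by 0.79 on the log2 scale under metformin and was at 0.27 ± 0.111 without it. The difference of the differences, the interaction of GPD1 and metformin, was called for 25 members in the positive direction and 7 in the negative, while 19.1% and 26.8% of all tested genes were (45.9% either way). Of these, ATP5MG, ATP5PB, COX20, NDUFA11, NDUFB7, NDUFC2, SDHAF4, SDHC and UQCR10 in the positive direction and SDHAF1 and SDHD in the negative were called in each of the 6 settings. With both corrections together the counts turned to 9 positive and 13 negative, while 14.2% and 30.6% of all tested genes were called so. COX20 overlaps HNRNPU on the opposite strand and has pseudogene copies that sum to 6.07 FPKM.

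**Figure D5:**
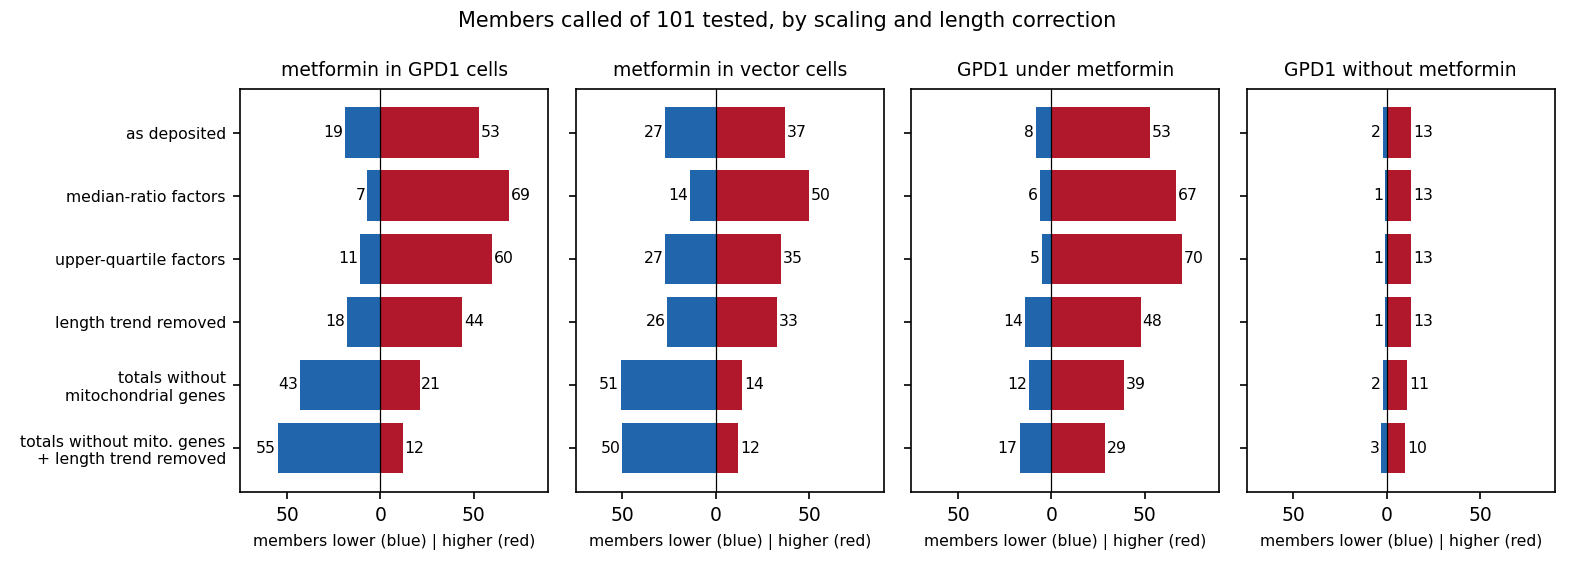
Number of the 101 tested members called higher (red, to the right) and lower (blue, to the left) in 4 comparisons, for the deposited totals and 5 other settings of scaling and length. For metformin the majority changes from higher to lower when totals exclude the mitochondrial genome (53 and 19 become 21 and 43 in GPD1 cells), while for GPD1 under metformin more members are higher than lower in each setting. With totals that exclude the mitochondrial genome, 13.5% of all tested genes are higher with metformin in GPD1 cells and 64.6% lower.

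Tissue-restricted forms of complex IV subunits all stayed below a mean of 1 FPKM. COX6A2 and COX7B2 were listed at 0 in all 12 libraries, COX4I2 was above 0 in 1 library (0.0814 FPKM), and COX7A1 and COX8C stayed at or under 0.516 FPKM. Their partners COX6A1, COX7B, COX4I1, COX7A2 and COX8A all passed 1 FPKM. COX6A1 has pseudogene copies that sum to 86.5 FPKM, and its libraries of GPD1 cells with metformin ranged from 132 to 187 FPKM. COX6B2, the testis form of COX6B1, was below the threshold for testing but was lower with metformin in every library, at 0.254, 0.172 and 0.216 FPKM in GPD1 cells with metformin and 0.911, 0.590 and 0.686 FPKM without it, and at 0.273, 0.248 and 0.230 FPKM in vector cells with metformin and 1.03, 0.798 and 0.866 FPKM without it. NDUFA4L2, the hypoxia-linked partner of NDUFA4, was at 0.283 to 0.720 FPKM. In all, 17 of the 101 tested members have a named pseudogene copy at a mean of at least 1 FPKM and 29 overlap an expressed gene on the opposite strand, and the labels do not state that strand was used in counting.

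Further genes of the chain carry other names. Of 36 tested assembly factors with other names, 7 rose and 21 fell with metformin in GPD1 cells, while 26.1% of all tested genes rose and 48.0% fell. In vector cells 5 rose and 19 fell, while 31.3% of all tested genes rose and 43.3% fell. With median-ratio factors 11 rose and 12 fell in GPD1 cells, while 36.1% of all tested genes rose and 37.2% fell. ACAD9, an assembly factor of complex I, averaged 1.20 FPKM in GPD1 cells with metformin and 3.95 FPKM without it, and 1.11 FPKM in vector cells with metformin and 4.04 FPKM without it. HIGD2A, linked to complex IV and supercomplexes, rose in both on the deposited scale (0.75 in GPD1 cells and 0.33 in vector cells on the log2 scale). It was -0.25 in vector cells with both corrections together, and its lowest value over the settings in GPD1 cells was 0.0008. CYCS, cytochrome c itself, averaged 21.8 FPKM in GPD1 cells with metformin and 38.0 FPKM without it, and 25.8 FPKM in vector cells with metformin and 35.6 FPKM without it, and it fell in both. Of the dehydrogenases that also feed ubiquinone, GPD2, DHODH and ETFDH fell with metformin and SQOR rose in both populations, although SQOR was at -0.04 in vector cells under totals without the mitochondrial genome and the call of ETFDH in GPD1 cells was lost with median-ratio factors (-0.19). GPD2, the mitochondrial partner of GPD1, was higher in GPD1 cells than in vector cells by 0.75 with metformin and 0.67 without it on the log2 scale.

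All 13 protein-coding transcripts of the mitochondrial genome were called lower with metformin in both populations (12 in vector cells with median-ratio factors). One of them, MT-CYB, was listed at 191, 0 and 0 FPKM in GPD1 cells with metformin, so that its call there rests on values listed at 0. MT-CO3 averaged 814 FPKM in GPD1 cells with metformin and 8550 FPKM without it, and 1384 FPKM in vector cells with metformin and 9754 FPKM without it. The known transcription regulators of respiratory genes, among them TFAM for the mitochondrial genome, differed between the populations. With metformin none of 8 tested rose and 7 fell in GPD1 cells, while 26.1% of all tested genes rose and 48.0% fell. Vector cells had 5 that rose and 2 that fell, while 31.3% of all tested genes rose and 43.3% fell. The interaction was called in the negative direction for 7, and for 26.8% of all tested genes. With totals without the mitochondrial genome 3 rose and 3 fell in vector cells, while 21.3% of all tested genes rose and 55.4% fell. PPRC1, a coactivator of the PGC-1 family, averaged 4.45 FPKM in GPD1 cells with metformin and 9.12 FPKM without it, and 17.3 FPKM in vector cells with metformin and 9.83 FPKM without it. TFAM, which packages and transcribes mitochondrial DNA, averaged 4.23 FPKM in GPD1 cells with metformin and 10.9 FPKM without it, and 9.34 FPKM in vector cells with metformin and 12.1 FPKM without it.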

How the data were processed

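Gene expression was measured by RNA sequencing of polyadenylated RNA in 12 A549 libraries, with 3 libraries in each of 4 groups taken from the labels. The submitters' processing notes name CASAVA 1.8, HISAT2 2.1.0 and edgeR; strand use and the counting step are not stated there. The deposited values were read as FPKM per gene, made by the authors. This unit was inferred from the values and cannot be told apart from RPKM. Low values, up to 10 steps, were whole multiples of 1 read within 0.02 of a step in only 64.6% to 69.4% of cases with GENCODE 29 lengths, which cover 99.5% of genes, so reads were not recovered and no count test was run.

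Group means of log2(FPKM + 1) were fitted over the 12 libraries with limma 3.58.1 in R 4.3.3, letting the prior variance follow intensity, for genes at a mean of at least 1 FPKM. Calls have a Benjamini-Hochberg adjusted p under 0.05 over all 12607 genes. Fold changes on this scale understate the change of low genes. On simulated data for metformin in vector cells, with 12607 genes, 56% of genes changed 1.25-fold and 92% of those changed 2-fold were recovered, and 6 of 175 calls were false. Few genes were changed there, with independent noise and without the shifts of library totals and the length trend of the real libraries. In the real comparison 74.6% of all tested genes were called. The simulated share of false calls therefore says nothing about calls that depend on scaling or length.

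Members and lists were chosen with earlier results of these data known. Named genes were the called members of each complex and role with the smallest p at a mean of at least 5 FPKM, up to 3 in each direction, for the interaction the up to 3 of each complex in each direction with the smallest p, the members with tissue-specific partners and the 4 SDH subunits, and up to 3 called genes of each list of other genes in each direction. Members named for keeping a call in all settings, for wide spread or for a printed promoter were chosen after their values were seen. Alternatives changed the scaling, the filter, the pseudocount, the groups fitted, the length correction (a spline with 5 df) and the libraries. Promoters came from RefSeq GRCh38.p14.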

Additional observations from a re-analysis of the deposited data

Results flagged for a closer look

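The change with metformin differed between GPD1 and vector cells, by the interaction test of the limma fit, for 20 named members. Values are the log2 fold change in GPD1 cells minus that in vector cells, and 45.9% of all tested genes were called in this test. In complex I they were NDUFA11 at 0.61, NDUFC2 at 0.43 and NDUFAF3 at 0.44, and NDUFA8 at -0.34 and NDUFAF7 at -0.30. In complex II they were SDHC at 0.55 and SDHAF4 at 0.67, and SDHAF1 at -1.05 and SDHD at -0.67. In complex III they were UQCR10 at 0.56, UQCRHL at 0.33 and UQCRH at 0.26, and UQCRFS1 at -0.20. In complex IV they were the assembly factors COX20 at 0.86 and COX17 at 0.44, and COX19 at -0.26 and COX11 at -0.23. In complex V they were ATP5MG at 0.50, ATP5PB at 0.48 and ATP5PD at 0.24. The calls of COX11, COX19, NDUFAF7 and UQCRFS1 were lost when 1 library or another was left out. Neither these nor the calls of ATP5PD, COX17, NDUFA8, NDUFAF3, UQCRH and UQCRHL were kept in each of the 6 settings of scaling and length.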

How the results depend on the processing

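Counts are members called higher and lower of 101. With totals without the mitochondrial genome, metformin gave 21 and 43 in GPD1 cells and 14 and 51 in vector cells, and the interaction gave 11 negative calls. With the length trend removed as well, these were 12 and 55, 12 and 50, GPD1 under metformin gave 29 and 17, and the interaction 9 and 13. Of all tested genes, 64.4% were then lower with metformin in GPD1 cells and 54.6% in vector cells. With median-ratio factors, 7 were lower with metformin in GPD1 cells and 14 in vector cells, and the interaction gave 43 and 3. The shares of all tested genes were 37.2%, 37.0%, and 24.3% and 23.6%. With upper-quartile factors, 11 were lower with metformin in GPD1 cells, 5 lower with GPD1 under metformin, and the interaction gave 47 and 2. The shares of all tested genes were 42.3%, 28.2%, and 26.7% and 21.9%. With the length trend alone removed, 14 were lower with GPD1 under metformin, against 35.3% of all tested genes. Without metformin, 1 member was lower with GPD1 under median-ratio or upper-quartile factors, with no filter, with a pseudocount of 0.1 or with the length trend removed. A minimum size of 0.5 on the log2 scale left 29 and 5 for metformin in GPD1 cells and 11 and 8 in vector cells. It left 10 and 2 for GPD1 under metformin, 1 and 1 without metformin, and 9 and 2 for the interaction. No shares of all tested genes were taken at this size. Leaving out each library gave 51 to 55 and 16 to 19 for metformin in GPD1 cells, 31 to 38 and 23 to 27 in vector cells, 47 to 55 and 6 to 10 for GPD1 under metformin, 6 to 15 and 1 to 3 without it, and 22 to 26 and 3 to 7 for the interaction.

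Over all tested genes, the deviations of same-numbered libraries from their group means correlated at -0.065 to 0.056. Libraries of different groups with other numbers gave -0.099 to 0.072. Correlations over all genes cannot show a pairing confined to a few genes. With the replicate block the counts were 53 and 17, 35 and 26, 54 and 7, 10 and 2, and 24 and 6 in the same order. Of 129 results for single genes the block ended 8 calls: ATP5PD, NDUFA11, UQCRC1 and UQCRH for GPD1 without metformin (adjusted p = 0.0568, 0.0622, 0.0541 and 0.0665), NDUFAF7 and UQCRFS1 for the interaction (0.0816 and 0.0583), and SDHA in GPD1 cells and ATP5MC3 in vector cells for metformin (0.0692 and 0.0680).

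Some log2 fold changes with metformin turned sign, and the cause was not tested. In GPD1 cells, totals without the mitochondrial genome gave ATP5PD -0.0354, COX7B -0.0873, NDUFAF8 -0.0625 and SDHAF4 -0.106. Both corrections together gave ATP5IF1 -0.0606, ATP5MD -0.147, ATP5PD -0.0219, COX5B -0.0641, COX6A1 -0.023, COX6B1 -0.196, COX7B -0.0903, COX8A -0.295, NDUFAF8 -0.311, SDHAF4 -0.344, SDHB -0.0421 and UQCRH -0.148. Median-ratio factors gave COX15 0.125 and SDHA 0.0578, upper-quartile factors gave COX15 0.0127, and the length trend alone gave SDHA 0.0032. In vector cells, totals without the mitochondrial genome gave ATP5MC3 -0.156, COX6B1 -0.0539, COX8A -0.0103, UQCRH -0.0731 and UQCRHL -0.0652, and the length trend alone gave COX8A -0.0337. Both corrections together gave ATP5MC3 -0.0697, COX6A1 -0.0918, COX6B1 -0.274, COX8A -0.345, UQCRH -0.197, UQCRHL -0.0695 and UQCRQ -0.0128.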
